A study of Mus musculus with 8 samples.

Results

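The genes described here, Glra3, Cgnl1, Amot, Bex6, Fgfbp3, Tifab, Muc13 and Arhgap12, are 8 of 18193 genes measured in mouse leukemic cells, picked among the largest falls in cells kept in EPZ4777 and lying outside the known targets of MLL-AF9. They are covered by 20 of 45037 probe sets, and each gene is read from its brightest probe set, that is, the one whose log2 intensity averaged over all 8 arrays is highest. The values in EPZ4777 and in DMSO chose these genes, so the falls are a description without a test. Ordered by the size of the fall among all genes in shLUC cells, Glra3 was number 2, Cgnl1 7, Amot 13, Bex6 18, Fgfbp3 19, Muc13 25, Arhgap12 636 and Tifab 1570. In cells labelled shSirt1 the places were 2 for Glra3, 12 for Cgnl1, 32 for Tifab, 34 for Muc13, 48 for Arhgap12, 106 for Bex6, 159 for Fgfbp3 and 183 for Amot.

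The fusion MLL-AF9 joins only a part of a histone methyltransferase to a part of a partner from the elongation machinery. All samples were murine leukemic cells carrying MLL-AF9, grown with SCF, IL-3 and IL-6. They carried a hairpin against luciferase (shLUC), which has no mouse target, or against the deacetylase Sirt1 (shSirt1). EPZ4777, an inhibitor of the histone H3 methyltransferase DOT1L, was given at 3 µM for 6 days to shLUC cells and for 21 days to shSirt1 cells, and DMSO was the control, for which the labels give no time. Each of the 4 groups held 2 arrays, distinguished in the titles by the codes A4 and D11 (shLUC) and A1 and A5 (shSirt1), so that a code links 1 DMSO array to 1 EPZ4777 array. What a code stands for, and whether arrays came from separate cultures, is not stated in the labels; p-values therefore measure only the spread between these arrays, which may be technical.

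Sirt1 itself was at a log2 intensity of 8.70 and 8.85 on the A1 arrays and between 9.44 and 9.83 on the other 6, including A5, so the cells are called labelled shSirt1. Of 12 myeloid markers 11 reached the array median, among them Mpo (12.75 to 13.56) and Ptprc (11.54 to 12.63), while Cd34 stayed at or below 3.39. The summed intensity of the 12 was 22170 to 26787 in DMSO and 28715 to 35673 in EPZ4777, and the part of this shift in the values of the 8 genes was not tested. Lists of 7 epithelial, 7 endothelial and 7 neuronal markers, tissues in which several of the 8 genes are best known, summed to 185 to 261, 333 to 434 and 167 to 176 in DMSO and to 204 to 274, 375 to 397 and 160 to 190 in EPZ4777, and 0 of these 21 markers passed either EPZ4777 comparison. The 7 stromal markers summed to 555 on the A1 array in DMSO and to 156 to 170 on the other 7. Of the 8 genes only Arhgap12 was highest among the DMSO arrays on that A1 array, at 5.88 against 5.83 on the next. Other genes there lay above some of the DMSO arrays, such as Cgnl1 (8.97 against 8.65 on D11). The part of the stromal signal in the values of the 8 genes was not tested.

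DOT1L methylates a lysine in the body of transcribed genes, and MLL fusions recruit it to keep their target genes active in leukemia. The 8 genes share no pathway. Glra3 encodes a subunit of the glycine receptor, a chloride channel of neurons. Cgnl1 (paracingulin), Amot (angiomotin) and Muc13 encode a tight junction linker, a scaffold that binds the coactivator YAP, and a mucin of epithelial surfaces. Fgfbp3 encodes a secreted carrier of fibroblast growth factors. Tifab, Arhgap12 and Bex6 encode intracellular proteins: an inhibitor of the adaptors TIFA and TRAF6, a GTPase-activating protein, and a member of the small BEX family.

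The 250 bases before the annotated start are shown for 3 of the genes: Glra3 and Cgnl1, which of the 8 genes had the largest falls in both hairpin arms, and Tifab, whose fall was mainly in cells labelled shSirt1. They come from RefSeq, build GRCm38.p6, and lie at chr8:55940168-55940417 (plus strand), chr9:71771603-71771852 (minus strand) and chr13:56178886-56179135 (minus strand). Capitals mark matches to the MEIS, C/EBP, MYB, PU.1 and HOX motifs spelled out after them.
Glra3: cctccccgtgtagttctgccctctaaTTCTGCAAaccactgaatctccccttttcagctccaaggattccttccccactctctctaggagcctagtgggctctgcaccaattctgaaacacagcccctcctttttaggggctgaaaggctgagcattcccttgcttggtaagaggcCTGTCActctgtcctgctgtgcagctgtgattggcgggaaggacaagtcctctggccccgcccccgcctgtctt
Cgnl1: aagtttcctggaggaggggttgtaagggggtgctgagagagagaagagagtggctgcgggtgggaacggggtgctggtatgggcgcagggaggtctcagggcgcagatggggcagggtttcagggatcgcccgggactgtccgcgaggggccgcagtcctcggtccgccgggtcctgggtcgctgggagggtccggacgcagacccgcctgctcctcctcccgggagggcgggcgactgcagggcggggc
Tifab: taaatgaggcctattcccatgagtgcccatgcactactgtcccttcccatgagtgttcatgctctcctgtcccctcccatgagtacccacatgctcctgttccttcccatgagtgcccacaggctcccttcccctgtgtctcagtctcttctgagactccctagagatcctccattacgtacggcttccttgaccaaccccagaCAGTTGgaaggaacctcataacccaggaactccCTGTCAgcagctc

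The promoters have little in common. In windows of 300 bases, from 250 before to 50 after the start, Cgnl1 held 30 CpG dinucleotides, more than 88.3% of the 32851 windows of all genes, while Glra3 held 8 and Tifab 2. The windows of Amot, Bex6 and Fgfbp3 held 7, 3 and 9, and the 2 windows of Muc13 held 0 and 4. Arhgap12 was left out of the promoter search, so the 8 windows searched are those of the other 7 genes. The motifs searched, on both strands, were TGACAG, the core bound by MEIS proteins, TTGCNNAA of C/EBP proteins, CAACNG of MYB, GAGGAA of PU.1 and TTTATNG of HOX proteins, with the E-box CACGTG and the TATA box TATAAA, which can overlap the HOX letters on the other strand. Windows of Glra3 and Tifab held the MEIS letters, as did 19.2% of all windows. Glra3 held those of C/EBP (10.8% of all windows), Tifab and 1 window of Muc13 those of MYB (35.0%), Amot, Bex6 and 1 window of Muc13 those of PU.1 (28.3%), and none of the 8 windows those of HOX (10.9%). Amot held the E-box (7.2%) and Fgfbp3 the TATA box (13.6%), neither of which is in capitals. Matches are a description of letters, not of binding.

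Glra3 had the widest range of the 8 genes. On the DMSO arrays it measured 9.77 (A4), 9.90 (D11), 9.77 (A1) and 9.38 (A5) in log2 intensity. With EPZ4777 the same codes gave 7.19 and 6.06 after 6 days and 5.93 and 4.25 after 21 days. All 4 EPZ4777 arrays lay below all 4 DMSO arrays. The linear signal in EPZ4777 was 10.8% of DMSO in shLUC cells and 4.48% in those labelled shSirt1. The arrays read RNA of bulk cultures, so fewer cells with a transcript and less of it per cell cannot be told apart.

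The junction and surface genes were lower in EPZ4777 on every code. Cgnl1 went from 9.14 and 8.65 to 7.14 and 6.25 in A4 and D11, and from 8.97 and 9.12 to 6.38 and 5.91 in A1 and A5, which left 21.7% and 13.4% of the DMSO signal in the 2 arms. Muc13 went from 9.96 on both shLUC arrays to 8.53 and 7.95, and from 9.06 and 9.78 to 7.20 and 7.19 in A1 and A5, or 30.4% and 21.4% of DMSO. The 2 EPZ4777 arrays labelled shSirt1 were nearly equal for Muc13, and its spread there lay in DMSO. Amot went from 7.69 and 8.02 to 5.23 and 6.32 in A4 and D11, and from 6.79 and 6.38 to 5.70 and 5.04 in A1 and A5. Its groups were separate within each arm, but across the arms the lowest DMSO array (A5, 6.38) was only just above the highest EPZ4777 array (D11, 6.32). Fgfbp3 went from 7.11 and 7.56 to 5.78 and 5.22 in A4 and D11, and from 7.26 and 7.46 to 6.15 and 5.99 in A1 and A5. It was the only one of the 8 genes with a higher mean in EPZ4777 in cells labelled shSirt1 than in shLUC cells.

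Of the intracellular genes, Bex6 stood at 6.78 on both shLUC arrays in DMSO and at 5.55 and 4.33 in EPZ4777, against 6.16 and 6.40 in DMSO and 4.79 and 4.73 in EPZ4777 in A1 and A5. These are 28.0% and 34.9% of DMSO. Tifab, in contrast, kept 73.4% of its DMSO signal in shLUC cells but 20.5% in those labelled shSirt1. It measured 9.03 and 9.24 in DMSO and 8.82 and 8.56 in EPZ4777 in A4 and D11, and 8.87 and 8.63 in DMSO and 6.84 and 6.08 in EPZ4777 in A1 and A5. Tifab was the only gene of the 8 whose EPZ4777 arrays overlapped the DMSO arrays, since A4 in EPZ4777 (8.82) lay above A5 in DMSO (8.63). Arhgap12 was the dimmest: 5.40 and 5.83 in DMSO and 5.20 and 4.69 in EPZ4777 in A4 and D11, and 5.88 and 5.63 against 3.61 and 3.97 in A1 and A5. The last 2 values lie near the lower quartile of all probe sets (3.75 to 3.84), where RMA compresses changes, so the fall to 25.6% of DMSO may be understated.

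**Figure D1:**
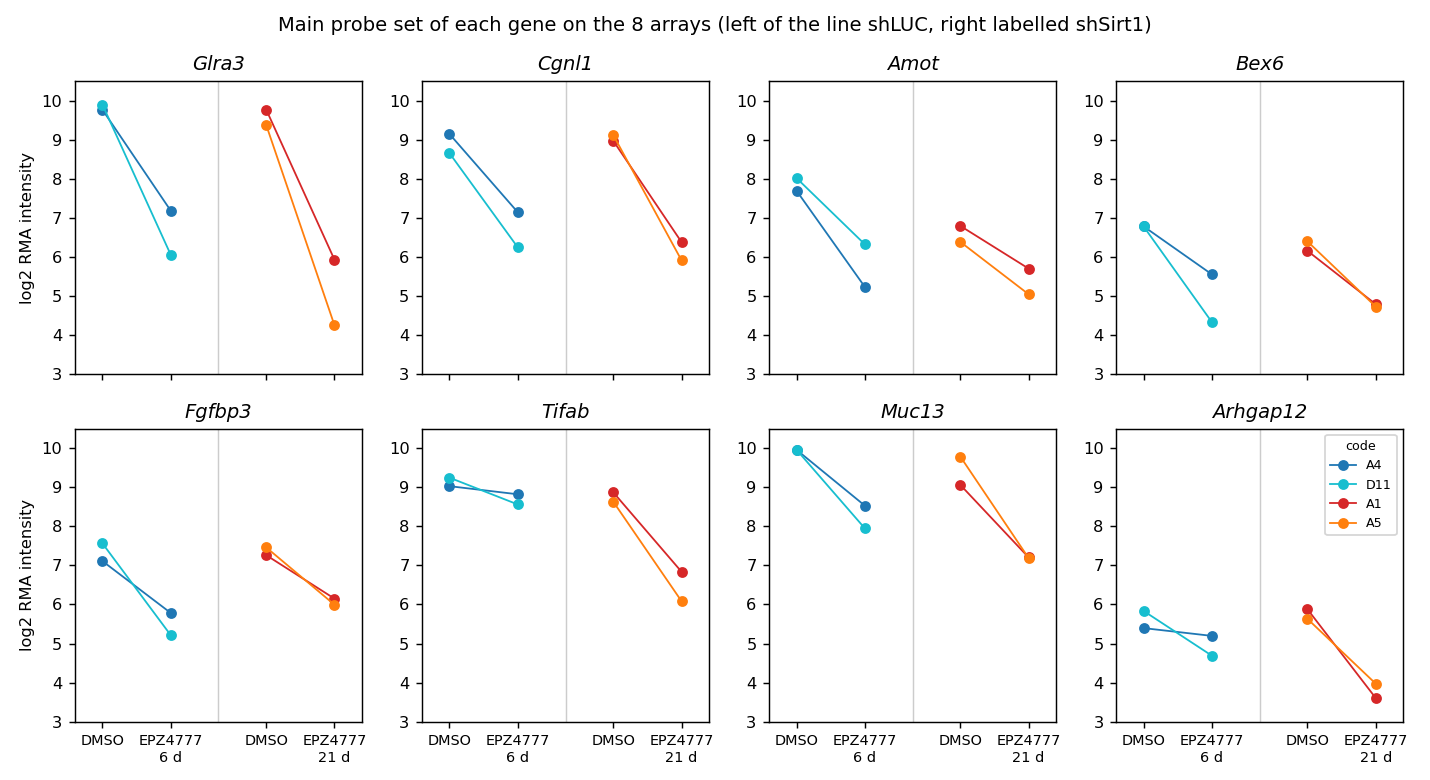
Log2 RMA intensity of the main probe set of each gene (vertical axis) in DMSO and in EPZ4777 (horizontal axis), with shLUC left and cells labelled shSirt1 right of the grey line; each point is 1 array and each line joins the 2 arrays of a code. Every line slopes down, those of Tifab and Arhgap12 in shLUC cells by the least in A4 (-0.21 and -0.20).

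Within a code, EPZ4777 minus DMSO was negative for all 8 genes in all 4 codes, against 19.6% of all genes, and 7 of 8 genes had all EPZ4777 arrays below all DMSO arrays, against 9.94% of all genes. Both counts follow from how the genes were picked. The median over the 8 genes was -1.38 in A4, -2.18 in D11, -1.94 in A1 and -2.11 in A5, and the difference was larger in D11 than in A4 for 7 genes, Amot being the exception, and larger in A5 than in A1 for 7, Arhgap12 being the exception. By arm the median was -1.84 in shLUC cells and -2.09 in those labelled shSirt1, beside -0.0025 and 0.011 over all genes. Of the 8 genes 5 had the larger difference in cells labelled shSirt1 and 3 (Amot, Bex6 and Fgfbp3) in shLUC cells. Over the 8 arrays, Pearson's r between pairs of the genes had a median of 0.84 over 28 pairs, from 0.44 for Fgfbp3 and Tifab to 0.97 for Glra3 and Cgnl1. The arrays share the EPZ4777 difference by which the genes were chosen, so these correlations only describe the profiles.

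The 12 other probe sets showed which falls had a further reading. Both probe sets of Muc13 gave nearly the same values in the 2 arms (-1.72 and -2.22 for the main one, -1.74 and -2.29 for the other), and so did those of Tifab (-0.45 and -2.29, and -0.59 and -2.31). For Cgnl1, 3 of the 4 other probe sets were lower in all codes, with -1.14 and -1.31, -0.68 and -0.61, and -1.13 and -1.78, and the dimmest gave 0.02 and -0.15. The second probe set of Glra3, at 4.55 or below on every array, gave -0.78 and -0.40. The 2 other probe sets of Amot gave -0.04 and 0.19, and -0.07 and 0.08, and the 3 of Arhgap12 lay between -0.31 and 0.24. These probe sets were dim, with means over the 8 arrays of 5.01 and 3.37 for Amot and 3.66, 3.30 and 3.08 for Arhgap12. All lie below the array median (5.21 to 5.27). The falls of Amot and Arhgap12 therefore rest on 1 probe set of 3 and 1 of 4, and those of Bex6 and Fgfbp3 on the single probe set each has. In all, 6 of the 12 other probe sets were lower in every code.

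**Figure D2:**
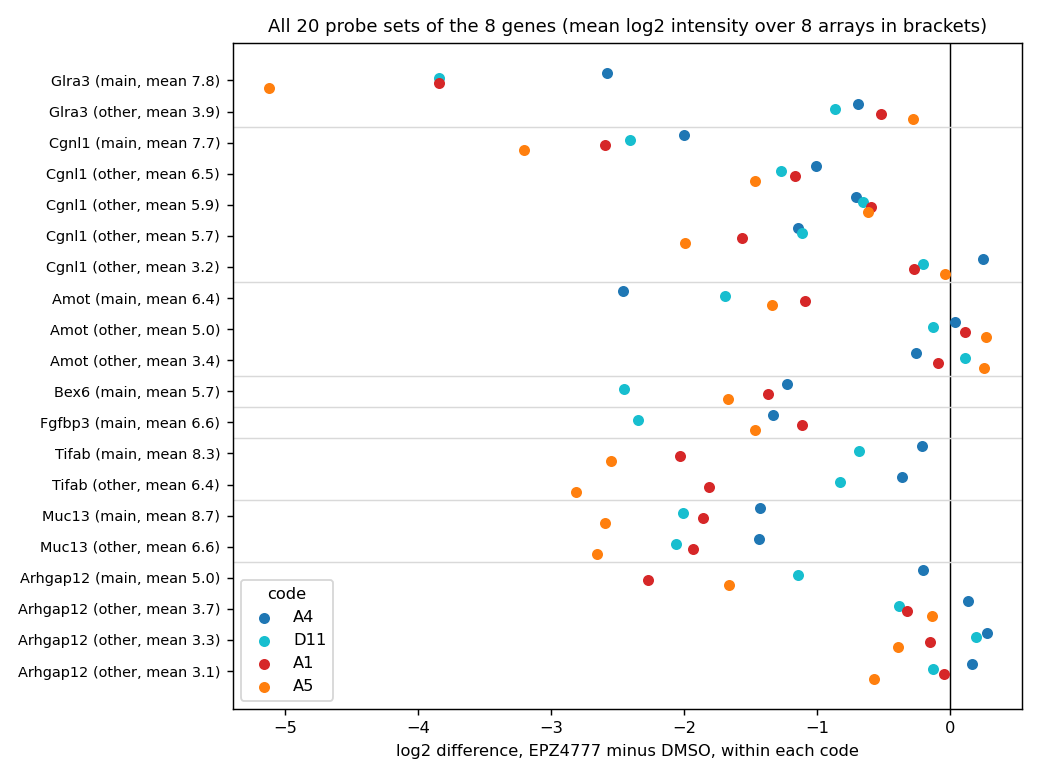
Log2 difference, EPZ4777 minus DMSO, within each of the 4 codes (horizontal axis, 1 point per code) for the 20 probe sets (vertical axis, with the mean log2 intensity over the 8 arrays). The pairs of Tifab and of Muc13 lie at nearly the same values, while the other probe sets of Amot and Arhgap12 lie around 0.

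The levels were also compared between the hairpin labels, on the same arrays whose EPZ4777 and DMSO values chose the genes. High DMSO values helped to choose the 8 genes, so their differences in DMSO are a description without a test. Of all genes 0% passed the limma test in DMSO. The largest difference of the 8 genes was that of Amot, at -1.27 (labelled shSirt1 minus shLUC) with a standard error of 0.38 (2 arrays in each group). Its 2 shLUC arrays lay above both arrays labelled shSirt1. The other 7 differences ranged from -0.54 (Muc13) to 0.14 (Cgnl1 and Arhgap12), and those of Cgnl1, Fgfbp3 and Arhgap12 changed sign with 1 array left out.

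The same difference in EPZ4777 is also a description without a test, because low EPZ4777 values chose the genes too. Tifab and Arhgap12 rank among the large falls only in cells labelled shSirt1. Tifab was at 21.3% of the shLUC level, with a difference of -2.23 on the log2 scale that stayed between -2.60 and -1.85 with any 1 array left out. The other Tifab probe set read 5.46 and 3.65 on the arrays labelled shSirt1 against 6.88 and 6.54 in shLUC cells. The hairpin is joined here to the time in EPZ4777, 21 against 6 days, and the 2 cannot be told apart. The difference was -1.15 for Arhgap12 and -1.04 for Muc13. For Glra3 it was -1.53, and -0.69 without A5, -0.97 without A4 and -2.37 without A1 in EPZ4777. Cgnl1 (-0.55), Amot (-0.41) and Bex6 (-0.18) differed less, and the sign of the last 2 turned when D11 (0.14 for Amot) or A4 (0.43 for Bex6) in EPZ4777 was left out. Fgfbp3 had the other sign (0.57).

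Tifa, the adaptor that Tifab restrains, was the 1 gene of 118 relatives to pass the test of the hairpin labels in EPZ4777, where 0.308% of all genes passed (0.242% lower and 0.066% higher), and was singled out after its values were seen. Its log2 intensity in shLUC cells was 7.98 and 8.08 in DMSO and 8.12 and 8.14 in EPZ4777, and in A1 and A5 it was 7.33 and 7.43 in DMSO and 6.72 and 6.69 in EPZ4777. Both arrays labelled shSirt1 were thus below both shLUC arrays in each agent. In EPZ4777 the difference was -1.42 ± 0.10 (n = 2 arrays per group, limma adjusted p = 0.0122), or 37.3% of the shLUC level, and in DMSO -0.65 ± 0.10 (limma adjusted p = 0.796). The first call was lost without either shLUC array in DMSO (adjusted p = 0.0514 for each), D11 in EPZ4777 (0.0960) or A5 in EPZ4777 (0.0536), and with only the EPZ4777 arrays in the fit (0.0594). With EPZ4777 in cells labelled shSirt1 Tifa measured -0.67 ± 0.10 (limma adjusted p = 0.06, or 0.0451 with the code as a replicate block), and in shLUC cells 0.10 ± 0.10 (adjusted p = 0.649).

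**Figure D3:**
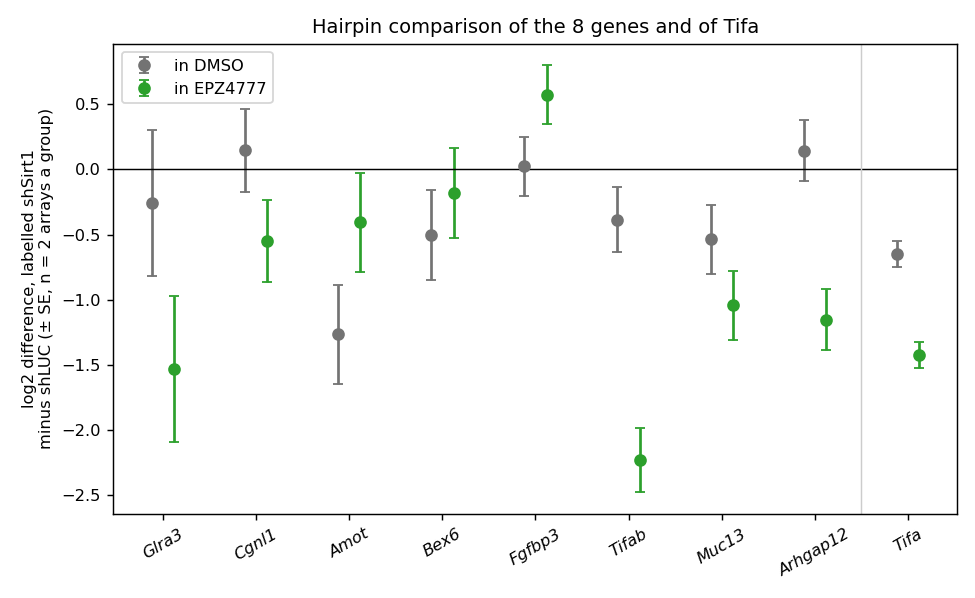
Log2 difference, labelled shSirt1 minus shLUC (vertical axis, point with standard error, n = 2 arrays per group), for the 8 genes and Tifa (horizontal axis), in DMSO (grey) and in EPZ4777 (green). In EPZ4777 Tifab and Tifa lie at -2.23 and -1.42, and Fgfbp3 lies above 0.

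Relatives of the 8 genes that passed the test in EPZ4777 were higher, though other settings called some as lower. Of 118 measured genes in 8 lists, 3 rose and 0 fell with EPZ4777 in shLUC cells, or 2.54% beside 3.98% of all genes (1.62% higher), and 17 had an unadjusted p under 0.05. After 21 days in cells labelled shSirt1, 1 rose and 0 fell, or 0.847% beside 0.396% (0.214% higher), with 20 at an unadjusted p under 0.05. The share of all genes at that unadjusted p was not counted for EPZ4777, so the 17 and 20 lack a background. The median differences of the relatives were 0.03 and 0.08. With the code as a fixed replicate block 6 passed in shLUC cells, of which Usp15 was lower, and 5 in those labelled shSirt1, of which Arhgap31 and Tifa were lower. With all probe sets of a gene averaged, the 3 that passed in shLUC cells, Gphn, Ikbkg and Lats1, were lower.

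Of 8 measured genes around the glycine receptor, Slc32a1, the vesicular transporter of GABA and glycine, rose in shLUC cells by 2.92 ± 0.58 (n = 2 arrays per group, limma adjusted p = 0.0456), from 5.19 and 4.44 to 8.05 and 7.41. The value in cells labelled shSirt1 was 2.35 ± 0.58 (limma adjusted p = 0.155, or 0.00850 with the code as a replicate block). Its 3 other probe sets lay between -0.098 and 0.18 in both arms, and the other 7 genes did not pass. Of 18 tight junction genes, Cldn1, a claudin, rose in both arms, by 2.16 ± 0.35 (adjusted p = 0.0346) and 3.47 ± 0.35 (adjusted p = 0.0385), and the other 17 passed in neither. It lay between 3.24 and 3.72 on the DMSO arrays, below the lower quartile of all probe sets, and at 5.23, 6.45, 6.92 and 6.83 in EPZ4777 in A4, D11, A1 and A5. Its call in cells labelled shSirt1 was lost when A4, D11 or A1 in DMSO or A1 or A5 in EPZ4777 was left out. Of 19 genes of the angiomotins and the Hippo pathway, Lats2, a kinase that restrains YAP, rose in shLUC cells by 1.13 ± 0.22 (adjusted p = 0.0440), while 18 did not pass, and its value in cells labelled shSirt1 was 1.07 ± 0.22 (adjusted p = 0.107, or 0.0428 with the code as a random replicate block). Other probe sets of Cldn1 gave 0.44 and 1.49, 0.18 and 0.30, and -0.08 and -0.01 in the 2 arms. A second probe set of Lats2 gave 1.12 and 0.98. The rest of Lats2 lay between -0.25 and 0.12 in shLUC cells and between -0.18 and 0.61 in those labelled shSirt1. When all probe sets of a gene were averaged, Slc32a1 (0.76), Lats2 (0.38) and, in shLUC cells, Cldn1 (0.67) no longer passed. In shLUC cells the calls of Slc32a1, Cldn1 and Lats2 were lost without either shLUC array in DMSO or D11 in EPZ4777. That of Lats2 was also lost without A1 or A5 in EPZ4777. That of Slc32a1 was also lost without A4 in EPZ4777 or without A1 or A5 in DMSO.

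The lists described next had no gene past the threshold in either arm. With the shLUC value first and the value labelled shSirt1 second, the genes with the largest difference in either arm were Bex1 among 7 BEX and TCEAL genes (1.10 ± 0.80 and 0.94 ± 0.80), Etv5, a factor induced by FGF signals, among 16 genes of FGF signalling (-0.60 ± 0.37 and -0.80 ± 0.37), and Spn, the leukocyte sialomucin, among 11 cell surface mucins (0.38 ± 0.19 and 0.55 ± 0.19). The same was measured for Tab2, a partner of the kinase downstream of TRAF6, among 13 genes of TIFA and TRAF6 signalling (0.77 ± 0.25 and 0.34 ± 0.25). Within codes Bex1 measured 2.22 in D11 and 1.93 in A5 but -0.01 in A4 and -0.06 in A1, and its shLUC value was -0.18 without D11 in EPZ4777.

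The neighbours of the 8 genes on their chromosomes were then compared, with 2 measured protein-coding genes on each side of each gene. In shLUC cells 3 of 32 fell and 0 rose, or 9.38% lower beside 2.36% of all genes. Among the 32 in cells labelled shSirt1, 0 passed in limma, beside 0.396% of all genes (0.181% lower). With the code as a replicate block 2 fell there. An unadjusted limma p under 0.05 was found for 9 of the 32 in shLUC cells and 13 in those labelled shSirt1. The share of all genes at that p was not counted for EPZ4777, so both counts lack a background. The median difference of the 32 was 0.0035 and -0.055, close to the medians of all genes.

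A neighbour of Glra3 had the largest difference of the 32 in both arms. Hpgd, which encodes the dehydrogenase that inactivates prostaglandins and lies next to Glra3, stood at 13.74 and 13.65 in DMSO and 12.50 and 10.72 in EPZ4777 in A4 and D11. In A1 and A5 it stood at 13.73 and 13.60 in DMSO and at 10.33 and 7.77 in EPZ4777. All EPZ4777 arrays lay below all DMSO arrays, and the order of the 4 EPZ4777 arrays was that of Glra3. With EPZ4777 for 21 days Hpgd had the largest fall of all 18193 genes, so that this gene and Glra3 held places 1 and 2. A1 and A5 differed widely, and Hpgd did not pass: it measured -4.61 ± 0.84 in cells labelled shSirt1 (n = 2 arrays per group, limma adjusted p = 0.0832, or 0.0422 with the code as a replicate block) and -2.08 ± 0.84 in shLUC cells (limma adjusted p = 0.208). With 1 array left out the first value ranged from -5.89 to -3.34 and the adjusted p from 0.0376 to 0.233, passing only without A1 in EPZ4777, and the value in shLUC cells ranged from -2.97 to -1.19. Its second probe set gave -3.44 and -1.67 in the same order. The other neighbours of Glra3, Wdr17, Gpm6a and Cep44, lay between -0.28 and 0.17 in both arms.

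The 4 neighbours of Cgnl1 were all lower in EPZ4777 on all 4 codes, as were 19.6% of all genes. They differed by much less than Cgnl1 and did not pass in the main limma fit. Polr2m, Myzap and Zfp280d were singled out after their values were seen. With the code as a random replicate block Polr2m (limma adjusted p = 0.0221) and Tcf12 (0.0437) passed in shLUC cells. Under the same block Tcf12 passed at the threshold in cells labelled shSirt1 (0.05). In shLUC cells Polr2m also passed with dim genes removed (0.0355) and with a trended variance (0.0426). Tcf12, an E protein transcription factor, measured -0.53 ± 0.17 and -0.67 ± 0.17 (n = 2 arrays per group, limma adjusted p = 0.122 and 0.160), Myzap -0.46 and -0.62, Polr2m -0.46 and -0.18, and Zfp280d -0.32 and -0.31. Myzap was at 3.41 or below on every array.

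Next to Tifab, Macroh2a1, which encodes a macroH2A histone, fell in shLUC cells by 0.66 (standard error 0.12, limma adjusted p = 0.0410), from 12.97 and 12.92 to 12.43 and 12.14. Its value in cells labelled shSirt1 was -0.77 ± 0.12 (limma adjusted p = 0.0683, or 0.0421 with the code as a replicate block), from 12.77 and 12.84 to 12.03 and 12.04. The values of Macroh2a1 in the arms lay closer together than those of Tifab. Near Muc13, Umps, the last enzyme of pyrimidine synthesis, fell in shLUC cells by 0.91 (standard error 0.14, limma adjusted p = 0.0304) and measured -0.58 ± 0.14 in cells labelled shSirt1 (limma adjusted p = 0.140, or 0.0469 with the code as a random replicate block). Near Fgfbp3, Btaf1, an ATPase acting on the TATA-binding protein, fell by 0.62 (standard error 0.11, limma adjusted p = 0.0380) and measured -0.26 ± 0.11. These 3 calls were lost without A4 or D11 in DMSO or D11 in EPZ4777, and only that of Umps remained without any 1 of the arrays labelled shSirt1. No neighbour of Amot, Bex6 or Arhgap12 passed, and the largest difference in either arm there was that of Alg13 (-0.18 and -0.39), Cep19 (0.87 and 0.80) or Zeb1 (0.35 and 0.68).

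**Figure D4:**
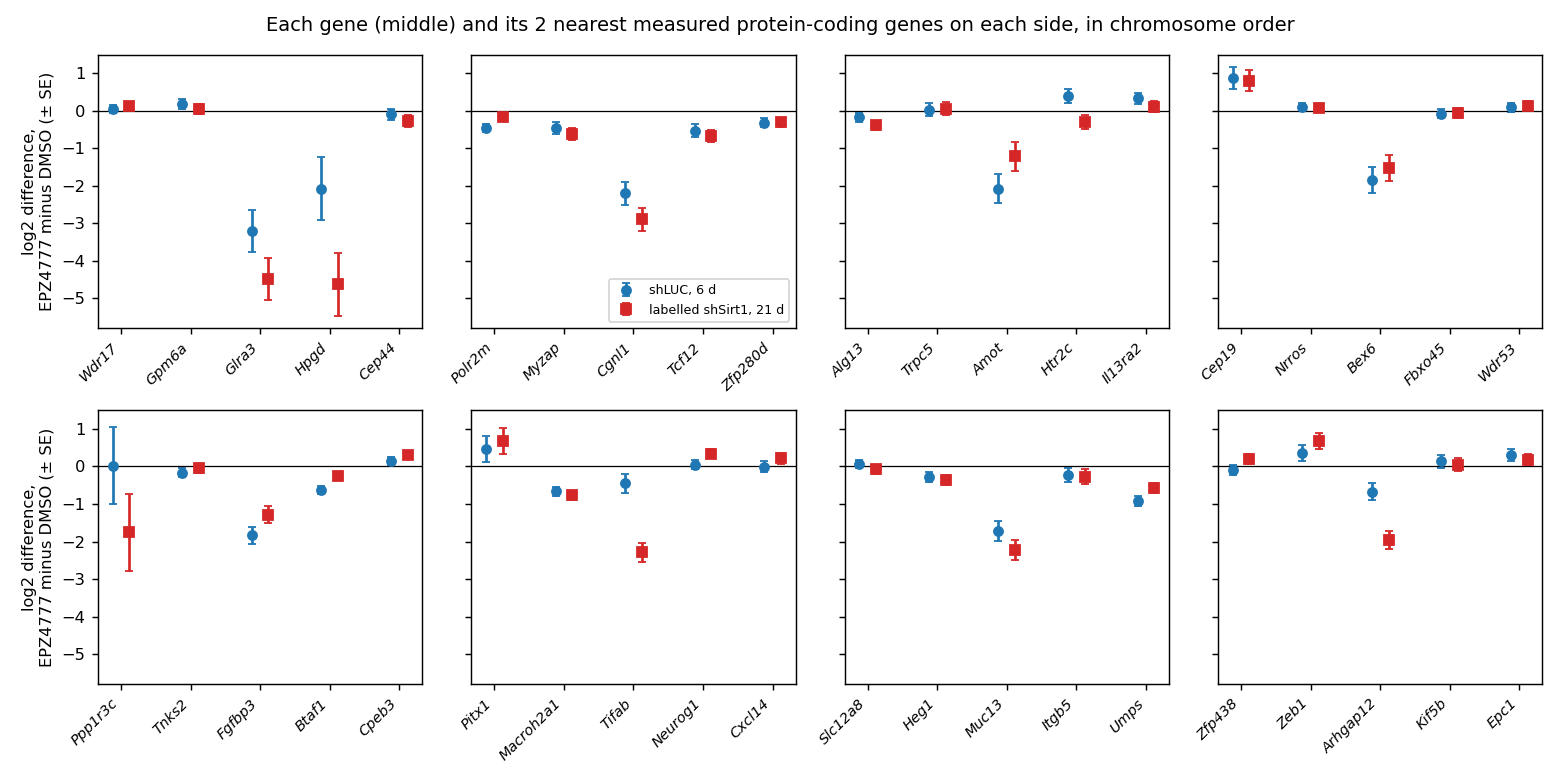
Log2 difference, EPZ4777 minus DMSO (vertical axis, with standard error, n = 2 arrays per group), of each of the 8 genes in the middle of its panel and of its 2 nearest measured protein-coding genes on each side in chromosome order (horizontal axis), in shLUC cells (blue) and cells labelled shSirt1 (red). Hpgd lies as low as Glra3 (-4.61 and -4.48 in red), and the neighbours of Cgnl1 all lie below 0.

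Genes with the most similar profile over the 8 arrays were picked by Pearson's r and are a description of these arrays, which share the EPZ4777 difference. For Glra3 they were Tap1, Eif4e3 and Tap2 (r = 0.99 for each), Tap1 and Tap2 being the subunits of the peptide transporter of antigen presentation, and their own differences were smaller, such as -0.74 and -1.14 for Tap1. For Cgnl1 they were Zfp507, Parp8 and Tap1 (r = 0.98 for each). For Amot they were Afp, Itga6 and Atf3 (0.94, 0.94 and 0.92), and no gene followed Amot as closely as the top gene of any other member followed that member. For Bex6 they were Chchd6, Slc29a1 and Zfp507 (0.99, 0.98 and 0.98), and for Fgfbp3 Slc39a10, Wdr34 and Spa17 (0.99, 0.98 and 0.98). Tifab was followed by Aldh1l1, Lpxn and St8sia4 (each 0.99), each with the larger difference in cells labelled shSirt1, for example -0.63 and -1.60 for Lpxn in the 2 arms. Muc13 was followed by Tmem156, Limk1 and Yae1d1 (0.99, 0.98 and 0.98) and Arhgap12 by St6gal1, H2-DMa and Lpl (0.97, 0.95 and 0.95).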

How the data were processed

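Total RNA was measured on 8 Affymetrix arrays, 1 per sample, in 4 groups of 2. The authors deposited 1 linear intensity per probe set; RMA is the method that the submitters' processing notes name. RMA corrects background, normalizes between arrays and combines probes, and it compresses low signals, so changes near the floor are understated. The sources used here give no version and do not state whether all arrays went through it as 1 set.

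The log2 of each intensity was taken without a pseudocount. The 64 control probe sets were left out. The platform annotation gave 34945 probe sets 1 symbol, 932 several and 9160 none. For each of 18193 genes the brightest probe set on average was kept, dim genes included. Limma 3.58.1 in R 4.3.3 fitted 4 group means to all 8 arrays, and its p-values were adjusted over all genes with the Benjamini-Hochberg method (threshold 0.05, two-sided). The smallest p of an exact permutation test with 2 arrays on each side would be 0.333. The number of arrays limits the precision. The members and lists were chosen with earlier results of these data known. Relatives came from 8 lists of family and pathway genes, of which 1 is counted in the totals but not reported here on its own. Neighbours were the 2 nearest measured protein-coding genes on each side in the RefSeq gene table of GRCm38.p6. The rule was to name relatives and neighbours that passed in either EPZ4777 comparison, or else the largest difference of their list. Tifa, Polr2m, Myzap and Zfp280d were named outside this rule, after their values were seen. Wdr17, Gpm6a and Cep44 are named as the other neighbours of Glra3, and some relatives for calls under other settings. For each member the 3 genes with the highest Pearson r are named, among 2768 genes with a range of at least 1 log2.

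The codes in the titles join a DMSO and an EPZ4777 array. Deviations from the group means correlated within codes at 0.293 for shLUC and 0.378 for shSirt1, and the text gives a fixed or random replicate block by code where it changes the call on a gene it names. Other settings tried were averaging all probe sets of a gene, quantile normalization, median centring, removal of dim genes, a trended variance, only the arrays compared, and each array left out in turn. Tested on simulated data for EPZ4777 in shLUC cells over 18193 genes, the limma fit recovered 58.1% of falls of 1 log2 and 91.3% of falls of 2, with 4.73% of calls false. The simulated noise was independent between arrays and equal in all groups. These arrays correlated within codes, and their spread within groups ran from 0.151 (shLUC in DMSO) to 0.302 (shSirt1 in DMSO). The simulated rates therefore need not hold for them.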

Additional observations from a re-analysis of the deposited data

Results flagged for a closer look

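With EPZ4777 Tifa moved up in both shLUC codes (0.14 in A4 and 0.06 in D11) and down in both codes labelled shSirt1 (-0.61 in A1 and -0.74 in A5). The difference between the arms was -0.78 ± 0.14 (n = 2 arrays per group) and did not pass in limma (adjusted p = 0.456).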

How the results depend on the processing

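Of the single genes, 0 with a value past the threshold turned their direction. Values that did not pass, or carry no test, turned sign with an array left out. The hairpin difference in DMSO ranged from -0.10 to 0.39 for Cgnl1, -0.20 to 0.25 for Fgfbp3 and -0.078 to 0.36 for Arhgap12, and that in EPZ4777 from -0.95 to 0.14 for Amot and -0.79 to 0.43 for Bex6. The EPZ4777 difference in shLUC cells ranged from -0.18 to 2.38 for Bex1, -0.78 to 0.29 for Arhgap29 and -0.073 to 0.31 for Sirt1, and that of Sirt1 in cells labelled shSirt1 from -0.27 to 0.61. In DMSO and in EPZ4777 the values that chose the genes enter the hairpin comparison, so it stays a description and no count of the 8 genes is given. The difference of Tifab in EPZ4777 ranged from -2.60 to -1.85 with an array left out. The count of relatives that passed in shLUC cells was 3 and became 6 with the code as a fixed replicate block and 10 as a random one, and 0 to 4 with an array left out. The 3 called after averaging probe sets were Gphn, Ikbkg and Lats1, all lower, where the 3 of the report were higher. In cells labelled shSirt1 it was 1 and became 2 with averaged probe sets, 0 with only the 4 arrays compared, 5 with either replicate block, and 0 to 2 with an array left out. The count of neighbours in shLUC cells was 3 and became 1 with only the 4 arrays compared, 5 with the random replicate block, and 0 to 3 with an array left out. In cells labelled shSirt1 it was 0 and became 1 with a trended variance, 2 with the fixed and 4 with the random replicate block, and 0 to 1 with an array left out. The median of the 8 genes in cells labelled shSirt1 moved from -2.09 to -1.43 with averaged probe sets, which add the dim ones, and ranged from -2.09 to -1.97 with an array left out; in shLUC cells it was -1.38 with averaged probe sets and -2.06 to -1.49 with an array left out. Where not given above, the cause was not tested.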
